A study of Sus scrofa with 9 samples.

Results

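Retrogenes are gene copies that arose when a spliced transcript was copied back into the genome, and a group of them is known for expression in the testis. Of 5 listed pairs of a retrogene and its X-linked parent gene, 8 of the 10 members were found among the 22342 genes of the deposited tables. The 4 retrogenes were RPL10L, CSTF2T, GK2 and CETN1, and the 4 parents were RPL10, CSTF2, CETN2 and RBMX. The members were chosen by symbol, with no measured value in the rule. GK, the parent of GK2, and RBMXL2, the retrogene of RBMX, had no matching identifier and are not analysed here, which left 3 complete pairs.

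The study sequenced total RNA of pig (Sus scrofa) testis cells labelled as spermatogonia, the mitotic germ cells, spermatocytes, the meiotic germ cells, and round spermatids, the haploid cells formed by meiosis. Each stage had 3 libraries, numbered 1, 2 and 3 for spermatogonia, 2, 3 and 4 for spermatocytes and 1, 2 and 3 for round spermatids. The labels give no breed, age, genotype or animal, and the stated aim was to follow gene expression and chromatin structure through spermatogenesis. The p-values below therefore speak of the spread among libraries, part of which may be technical.

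As background, the X chromosome is packed into a silent chromatin body in meiotic prophase in male mammals, a process called meiotic sex chromosome inactivation. Retrogenes on autosomes are outside that body, and for several X-linked housekeeping genes an autosomal copy is known to be needed for male meiosis or sperm formation. RPL10 and RPL10L encode the large ribosomal subunit protein uL16, CSTF2 and CSTF2T the RNA-binding subunit of the cleavage stimulation factor that acts at mRNA 3' ends, CETN2 and CETN1 the centriole proteins called centrins, GK2 a glycerol kinase, and RBMX the RNA-binding protein hnRNP G.

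All 4 parents lie on the X chromosome and all 4 retrogenes on autosomes, in Sscrofa11.1 coordinates of a RefSeq gene table matched by symbol. RPL10 (ENSSSCG00000035997) spans chrX:124927249-124929791, CSTF2 (ENSSSCG00000012486) chrX:82508739-82540861, CETN2 (ENSSSCG00000012757) chrX:123902240-123906046 and RBMX (ENSSSCG00000012703) chrX:111965859-111974544. RPL10L (ENSSSCG00000005001) spans chr1:176603177-176604116, CSTF2T (ENSSSCG00000010430) chr14:98104957-98109479, GK2 (ENSSSCG00000009257) chr8:138264916-138266872 and CETN1 (ENSSSCG00000028613) chr6:105740188-105742226. Each interval is the whole gene. In the 3 complete pairs the retrogene's span was shorter than the parent's, at 940 against 2543 bp for RPL10L and RPL10, 4523 against 32123 bp for CSTF2T and CSTF2, and 2039 against 3807 bp for CETN1 and CETN2.

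Library totals ran from 47963279 to 64639201 estimated counts, so counting error was small for every member. The least covered were the parents in spermatocytes, where RPL10 had 298, 209 and 374 estimated counts and CSTF2 288, 162 and 453. The 3 spermatogonia libraries were far closer to each other than those of the other stages, with a median chi-square per gene of 0.801 to 0.861 between pairs against 0.455 for sampling noise alone and 2.27 to 22.0 in the other stages, and they were kept as 3 samples. Round spermatids 2 stood apart from the other round spermatid libraries (median chi-square 20.5 and 22.0, against 2.27 between those). Markers only partly followed the labels. The summed level of 6 spermatocyte markers was 2187 to 2694 CPM (counts scaled by library size) in spermatocytes, 416 to 433 CPM in spermatogonia and 193 to 265 CPM in round spermatids. Among them SPO11 was highest in spermatogonia, at 6.87 to 7.05 CPM against 1.86 to 3.62 CPM in spermatocytes. SYCP1, SYCP2, SYCP3, HORMAD1 and MEIOC were highest in spermatocytes. The round spermatid markers summed to 4787 to 7125 CPM in round spermatids and to 1730.1 to 1774 CPM in spermatogonia, above the 471 to 1511 CPM of spermatocytes. PRM1, PRM2, TNP1 and TNP2 were highest in round spermatids. ACRV1 and SPACA1 were highest in spermatogonia, at 117 to 122 and 78.8 to 83.6 CPM. In round spermatids these 2 were at 34.2 to 65.2 and 39.0 to 42.5 CPM. The 5 spermatogonia markers summed to 92.1 to 96.1 CPM in spermatogonia, 34.4 to 45.6 CPM in spermatocytes and 73.1 to 77.9 CPM in round spermatids. Of these KIT, the receptor in the heading of the spermatogonia columns, was lowest there, at 6.22 to 6.54 CPM against 6.64 to 8.07 CPM in spermatocytes and 22.8 to 25.7 CPM in round spermatids. UCHL1 (24.9 to 27.6 CPM), DMRT1 (51.3 to 53.4 CPM) and STRA8 (5.33 to 5.75 CPM) were highest in spermatogonia, and ZBTB16 was at 3.50 to 4.14 CPM there and 4.16 to 4.44 CPM in round spermatids. Among other cell types, 5 smooth muscle markers summed to 4052 to 4927 CPM in round spermatids, 16.2 to 17.3 CPM in spermatogonia and 8.03 to 19.4 CPM in spermatocytes, and 4 of 5 Leydig cell markers found summed to 293 to 312 CPM in spermatogonia and at most 20 CPM elsewhere. Sertoli cell markers summed to 55.8 to 59.6 CPM in spermatogonia, 25.8 to 39.7 CPM in spermatocytes, where AMH was at 0, and 194 to 239 CPM in round spermatids. Endothelial markers (2 of 3 found) summed to 7.68 to 9.08, 4.30 to 14.3 and 126 to 144 CPM in that order, and leukocyte markers to 0.762 to 1.09, 0.611 to 1.74 and 12.1 to 19.7 CPM.

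The retrogenes and the parents moved in opposite directions in round spermatids against spermatocytes. All 4 retrogenes fell and all 4 X-linked parents rose, where 36.4% of all genes tested were called lower and 42.7% higher. Of the X-linked genes tested, 81.0% were called higher. Between spermatogonia and spermatocytes the members did not separate by class, with RPL10, CSTF2, RPL10L and GK2 lower in spermatocytes and CSTF2T, CETN1 and CETN2 higher. Values below are levels in CPM scaled by edgeR's TMM factors, and each log2 fold change has its standard error and an adjusted p from edgeR's quasi-likelihood test with Benjamini-Hochberg adjustment over the 16802 genes tested, called below 0.05. The 3 comparisons share libraries, so they are set side by side and do not count as independent. In bulk RNA fewer cells of a type and less RNA per cell cannot be told apart. How reads shared by near-identical copies were divided is not given in the sources used here, so the split between a retrogene and its parent carries that uncertainty, and so do overlapping and antisense genes, since the use of strand in counting is not given either.

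**Figure D1:**
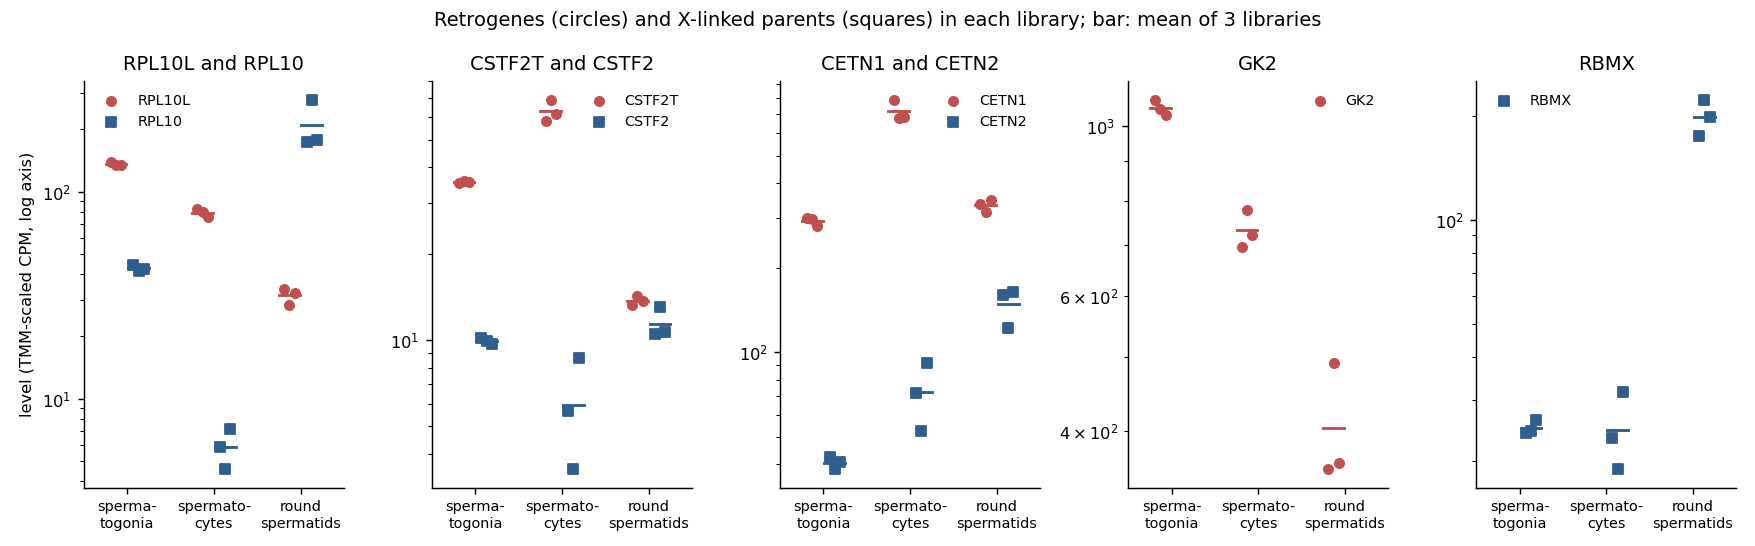
Level of each member in each of the 9 libraries, as TMM-scaled CPM on log axes whose range differs between panels. Red circles are retrogenes, blue squares X-linked parents and short bars the mean of 3 libraries. RPL10 squares drop to 4.56 to 7.16 CPM in spermatocytes and rise to 173 to 279 CPM in round spermatids, while RPL10L circles go down from 134 to 139 CPM to 28.4 to 34.0 CPM.

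Among the ribosomal protein genes, the parent RPL10 had the widest swing of all members. Its level was 44.2, 41.6 and 42.3 CPM in spermatogonia, 5.84, 4.56 and 7.16 CPM in spermatocytes 2, 3 and 4, and 173, 279 and 177 CPM in round spermatids. No libraries of different stages overlapped, with spermatocytes lowest and round spermatids highest. RPL10 was 7.28-fold lower in spermatocytes than in spermatogonia (log2 fold change -2.86 ± 0.22, adjusted p = 2.25e-06, edgeR), 35.8-fold higher in round spermatids than in spermatocytes (5.16 ± 0.242, adjusted p = 2.18e-08) and 4.91-fold higher in round spermatids than in spermatogonia (2.30 ± 0.21, adjusted p = 2.9e-06). Its retrogene RPL10L followed another course, at 139, 134 and 134 CPM in spermatogonia, 82.9, 79.9 and 75.2 CPM in spermatocytes and 34.0, 28.4 and 32.4 CPM in round spermatids. RPL10L thus went down at each stage, again with no overlap. The falls were 1.71-fold in spermatocytes against spermatogonia (-0.77 ± 0.102, adjusted p = 6.59e-05, edgeR) and 2.51-fold in round spermatids against spermatocytes (-1.33 ± 0.103, adjusted p = 6.65e-07). The highest level of the retrogene was therefore in the libraries labelled spermatogonia and not in those labelled spermatocytes, and the round spermatid and Leydig cell markers given above were also high in those libraries. Their part in it was not tested.

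CSTF2T and CSTF2, the 3' end factors, moved in opposite directions at both steps. CSTF2T was at 35.3, 35.8 and 35.7 CPM in spermatogonia, 58.2, 69.0 and 61.4 CPM in spermatocytes and 13.2, 14.2 and 13.7 CPM in round spermatids. Spermatocytes were highest and round spermatids lowest in every library. It rose 1.76-fold in spermatocytes against spermatogonia (0.82 ± 0.103, adjusted p = 4.77e-05, edgeR) and was 4.57-fold lower in round spermatids than in spermatocytes (-2.19 ± 0.107, adjusted p = 2.79e-08). Its parent CSTF2 was a low gene, with 10.2, 9.92 and 9.69 CPM in spermatogonia, 5.64, 3.54 and 8.67 CPM in spermatocytes and 10.5, 13.0 and 10.7 CPM in round spermatids. The spermatocyte libraries were lowest but spread widely. CSTF2 was 1.67-fold lower in spermatocytes than in spermatogonia (-0.74 ± 0.261, adjusted p = 0.0262, edgeR) and 1.91-fold higher in round spermatids than in spermatocytes (0.93 ± 0.262, adjusted p = 0.00727), and round spermatids against spermatogonia did not pass the test (0.20 ± 0.257, adjusted p = 0.493). The fall in spermatocytes passed the test in 9 of 19 alternatives. It was lost without spermatogonia 1, 2 or 3 (adjusted p = 0.0625, 0.0572 and 0.0524, edgeR) and without spermatocytes 2 or 3 (0.0763 and 0.0501), while the log2 fold change was -1.11 without spermatocytes 4 and -0.47 without spermatocytes 3.

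CETN1, the centrin retrogene, peaked in spermatocytes, while the parent CETN2 was higher at each later stage. CETN1 was at 301, 298 and 281 CPM in spermatogonia, 791, 682 and 687 CPM in spermatocytes and 337, 315 and 348 CPM in round spermatids. It was 2.45-fold higher in spermatocytes than in spermatogonia (1.29 ± 0.103, adjusted p = 2.72e-06, edgeR) and 2.16-fold lower in round spermatids than in spermatocytes (-1.11 ± 0.103, adjusted p = 2.55e-06). Round spermatids were slightly above spermatogonia in all 3 libraries, and the difference did not pass the test (0.18 ± 0.102, adjusted p = 0.119, edgeR). It was called higher in 4 of 19 alternatives, with RLE size factors (0.25, adjusted p = 0.0489, edgeR), with DESeq2 (0.25, adjusted p = 0.0273), with only the compared stages (0.23, adjusted p = 0.0244, edgeR) and without round spermatids 2 (0.22, adjusted p = 0.0336, edgeR), and lower in 1, on the TPM scale (-0.43, adjusted p = 0.047, limma). CETN2 was at 42.4, 38.4 and 40.6 CPM in spermatogonia, 71.8, 52.6 and 91.5 CPM in spermatocytes and 160.4, 122 and 164 CPM in round spermatids, with no overlap between stages. It rose 1.78-fold (0.83 ± 0.191, adjusted p = 0.00263, edgeR) and then 2.07-fold (1.05 ± 0.191, adjusted p = 0.000462), which made it the only one of the 4 parents called higher in spermatocytes than in spermatogonia. The first of those rises was lost on the TPM scale (0.27, adjusted p = 0.281, limma) and without normalization factors (0.42, adjusted p = 0.0735, edgeR). The call of CETN2 in that comparison was also lost with the spermatogonia libraries summed into 1 sample.

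GK2 and RBMX had no partner that could be matched by symbol. GK2, a glycerol kinase, was at 1084, 1053 and 1034 CPM in spermatogonia, 695, 779 and 721 CPM in spermatocytes and 357, 491 and 364 CPM in round spermatids. Stages did not overlap, and the order was that of RPL10L. GK2 fell 1.44-fold in spermatocytes against spermatogonia (-0.53 ± 0.133, adjusted p = 0.00437, edgeR) and 1.81-fold in round spermatids against spermatocytes (-0.86 ± 0.133, adjusted p = 0.000148). The scaling mattered for both, since the first was -0.29 without the 50 most abundant genes (adjusted p = 0.114, edgeR) and the second -0.37 without normalization factors (adjusted p = 0.069). RBMX was at 24.1, 24.4 and 26.2 CPM in spermatogonia, 23.3, 18.9 and 31.6 CPM in spermatocytes and 175, 223 and 199 CPM in round spermatids. The first 2 stages overlapped and the difference had no settled sign (-0.02 ± 0.174, adjusted p = 0.943, edgeR, and 0.22 without the 50 most abundant genes). Round spermatids were 8.08-fold above spermatocytes (3.01 ± 0.186, adjusted p = 1.27e-07) and 7.99-fold above spermatogonia (3.00 ± 0.186, adjusted p = 1.98e-07).

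The counts of called members have to be read against a table in which most genes differed. In spermatocytes against spermatogonia 73.4% of genes tested were called, 29.3% higher and 44.0% lower, and of the members 3 were called higher and 4 lower. With 2 retrogenes higher and 2 lower, and 1 parent higher and 2 lower, the members' shares were near that background. The median log2 fold change was 0.14 over the retrogenes, -0.38 over the parents and -0.32 over all genes. In round spermatids against spermatocytes 79.2% of genes were called, 42.7% higher and 36.4% lower, and the parents were 4 of 4 higher and the retrogenes 4 of 4 lower (medians 2.03 and -1.22, and 0.19 over all genes). In round spermatids against spermatogonia 79.2% were called, 39.5% higher and 39.7% lower, with RPL10, CETN2 and RBMX higher, and RPL10L, CSTF2T and GK2 lower (log2 fold changes -2.10 ± 0.105, -1.37 ± 0.105 and -1.39 ± 0.135). Over 19 alternatives the parents remained at 4 higher in round spermatids against spermatocytes in every one, and the retrogenes at 3 or 4 lower. Scaling moved the median of all genes in spermatocytes against spermatogonia from -0.32 to -0.09 when the 50 most abundant genes were set aside and to -0.74 with no normalization factors, and the share of called genes that were higher from 40.0% to 48.4% and 26.8%. The calls of CSTF2 and GK2 were lost under the former and that of CETN2 under the latter.

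The X chromosome gives a closer yardstick for the parents. Among 415 X-linked genes tested, 56.9% were lower and 10.4% higher in spermatocytes than in spermatogonia, with a median log2 fold change of -0.86, against -0.30 over 12252 autosomal genes. In round spermatids against spermatocytes 81.0% of X-linked genes were higher and 2.65% lower (median 2.05), and on autosomes 42.4% and 38.4% (median 0.13). The 4 rises among 4 parents were thus near the share of X-linked genes, and their median of 2.03 was near the X-linked median. Within that group RPL10 ranked 33rd from the lowest change in spermatocytes against spermatogonia and CETN2 37th from the highest, while CSTF2 and RBMX were 228th and 315th from the lowest. In round spermatids against spermatocytes RPL10 ranked 56th from the highest, RBMX 137th, CETN2 295th and CSTF2 308th. Against spermatogonia, round spermatids had 66.7% of X-linked genes higher and 11.3% lower (median 1.38), and RBMX ranked 83rd from the highest, RPL10 133rd, CETN2 164th and CSTF2 311th. On the TPM scale 49.2% were higher and 18.6% lower there (median 0.58), and 3.13% were higher in spermatocytes against spermatogonia. RPL10 and CETN2 therefore stood near opposite ends of the X-linked genes on going from spermatogonia to spermatocytes, although their coordinates above are close to each other.

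**Figure D2:**
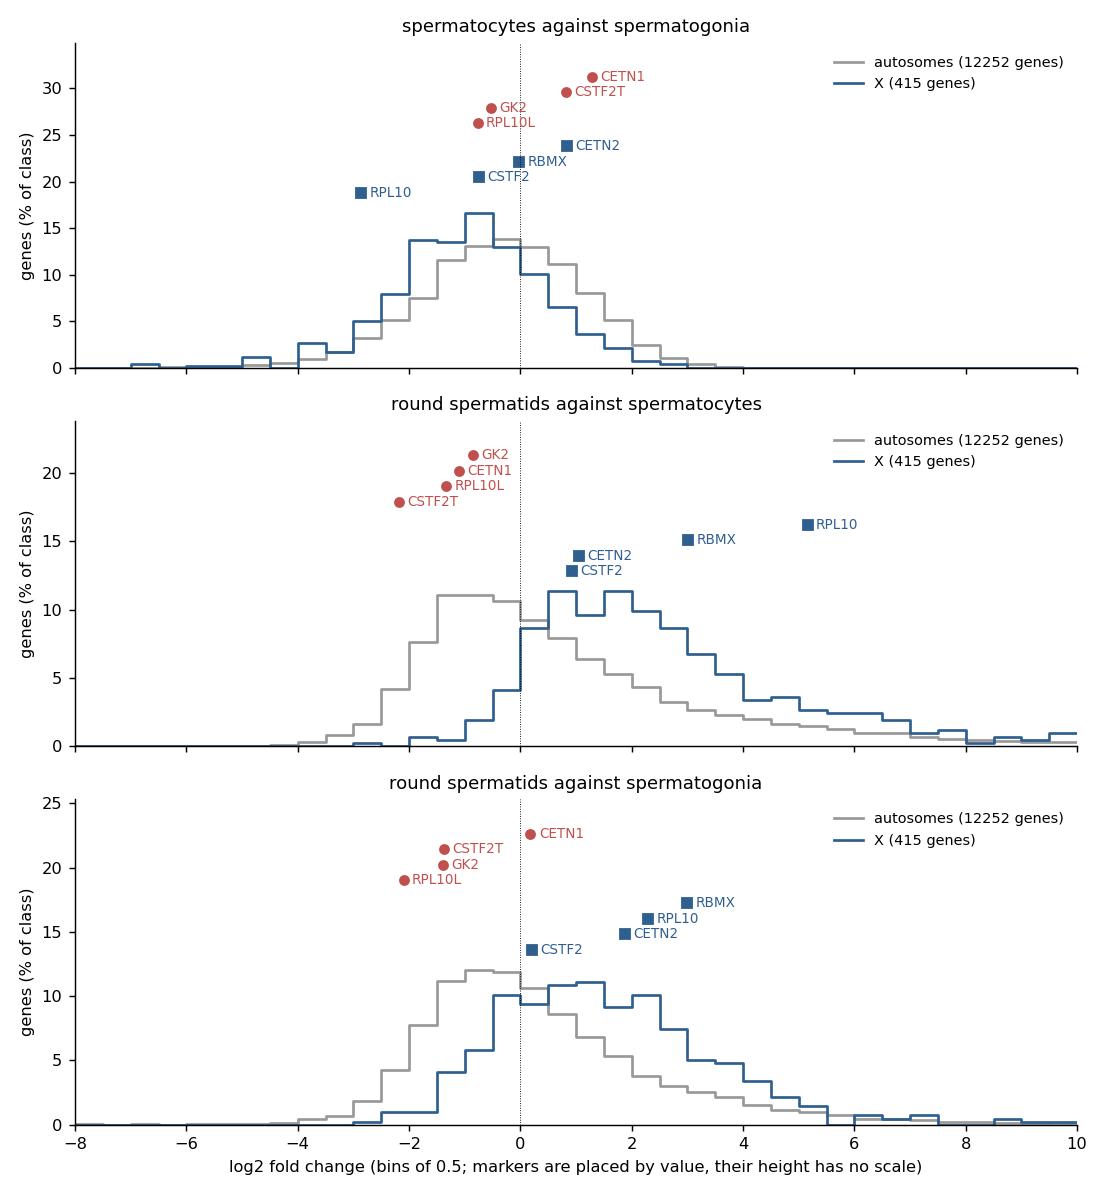
Distribution of log2 fold changes over X-linked genes (blue line) and autosomal genes (grey line), in percent of each class per bin of 0.5 with values past the ends in the end bins, with the 4 retrogenes (red circles) and 4 parents (blue squares) placed by their value at heights that carry no scale. In round spermatids against spermatocytes the X-linked median is 2.05 and all 4 parents lie right of 0, while the 4 retrogenes lie left of it.

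Among the spermatocyte libraries all 4 parents had the same order, with library 3 lowest and library 4 highest. RPL10 was at 4.56, 5.84 and 7.16 CPM in libraries 3, 2 and 4, CSTF2 at 3.54, 5.64 and 8.67 CPM, CETN2 at 52.6, 71.8 and 91.5 CPM, and RBMX at 18.9, 23.3 and 31.6 CPM. The retrogenes did not share it, and CSTF2T and GK2 were highest in library 3. The summed round spermatid markers had the parents' order too, at 471, 1457 and 1511 CPM, and the smooth muscle markers were at 8.03, 10.2 and 19.4 CPM. Sertoli cell (25.8, 26.9 and 39.7 CPM), endothelial (4.30, 4.76 and 14.3 CPM) and leukocyte markers (0.611, 0.784 and 1.74 CPM) had that order as well. The summed Leydig cell, spermatogonia and spermatocyte markers did not. The part of these cell types in the parents' levels was not tested. PRM1, a protamine of late spermatids, was at 200.4 to 682 CPM in these libraries, and the smooth muscle actin ACTA2 at 0.109 to 1.05 CPM. In round spermatids, where all 4 parents had their highest mean CPM, smooth muscle was the somatic type with the highest summed markers, ACTA2 being at 963 to 1301 CPM and the muscle myosin MYH11 at 1617 to 2496 CPM. The summed Sertoli cell, endothelial and leukocyte markers given above were higher there than in spermatocytes as well. The part of all 4 somatic types in the parents' rise was not tested either.

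The balance within a pair was read from TPM, which is per transcript length and allows a comparison between genes of one library. The annotation behind those lengths is not given in the sources used here, so levels compared between genes carry that uncertainty. Each ratio below is the retrogene's TPM over the parent's, and TPM levels are given first for RPL10L and RPL10. RPL10L was at 606, 596 and 593 TPM in spermatogonia, 245, 239 and 246 TPM in spermatocytes and 84.1, 114 and 78.1 TPM in round spermatids, and RPL10 at 107, 102 and 104 TPM, 9.58, 7.58 and 13.0 TPM, and 238, 622 and 238 TPM. The ratio was 5.65, 5.82 and 5.70 in spermatogonia, 25.3, 31.2 and 18.8 in spermatocytes and 0.354, 0.184 and 0.329 in round spermatids. The retrogene was the main source of uL16 transcripts in the first 2 stages, with 85.0 to 85.3% and 95.0 to 96.9% of the pair's TPM, and the minor one in round spermatids with 15.5 to 26.1%. It was the only one of the 3 pairs in which the parent exceeded the retrogene at any stage.

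For the 3' end factors, CSTF2T exceeded CSTF2 in all 9 libraries. The ratio was 4.66, 4.85 and 4.94 in spermatogonia, 13.3, 24.2 and 9.36 in spermatocytes and 1.70, 1.49 and 1.72 in round spermatids. CSTF2T held 82.6 to 83.5%, 90.6 to 96.4% and 60.0 to 63.7% of the pair's TPM in that order. CETN1 exceeded CETN2 by more, with ratios of 24.5, 26.8 and 23.8 in spermatogonia, 38.0, 44.7 and 25.9 in spermatocytes and 7.25, 8.89 and 7.31 in round spermatids. CETN1 held 87.9% or more of the centrin pair's TPM in every library, so the parent remained the minor partner even where it was called higher. The size of that share depends on the lengths used for TPM. In CPM, which is not per length, CETN1 was also above CETN2 in every library. The gap was smaller, with means of 333 and 149 CPM in round spermatids.

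All 3 ratios differed between the stages. In an exact permutation test of the one-way F statistic of the log2 ratio over the 1680 assignments of 9 libraries to 3 stages, p was 0.00357 for RPL10L to RPL10 and for CSTF2T to CSTF2, the smallest it allows, and 0.00714 for CETN1 to CETN2, with Benjamini-Hochberg values over 3 pairs of 0.00536, 0.00536 and 0.00714. The mean log2 ratio of RPL10L to RPL10 was 2.52 ± 0.0217 in spermatogonia, 4.62 ± 0.366 in spermatocytes and -1.85 ± 0.519 in round spermatids (SD, n = 3). For CSTF2T to CSTF2 these were 2.27 ± 0.0433, 3.85 ± 0.694 and 0.71 ± 0.116, and for CETN1 to CETN2 4.64 ± 0.0891, 5.14 ± 0.405 and 2.96 ± 0.167. Spermatocytes against round spermatids gave the widest gap in each pair, at -6.47, -3.14 and -2.18 on the log2 scale for round spermatids minus spermatocytes. Between any pair of stages 3 libraries against 3 cannot go below a 2-sided exact permutation p of 0.10, which all of these reached with no overlap except CETN1 to CETN2 in spermatocytes minus spermatogonia (0.50 on the log2 scale, exact permutation p = 0.2, libraries overlapping). That difference was 0.33 without spermatocytes 3 and 0.72 without spermatocytes 4.

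**Figure D3:**
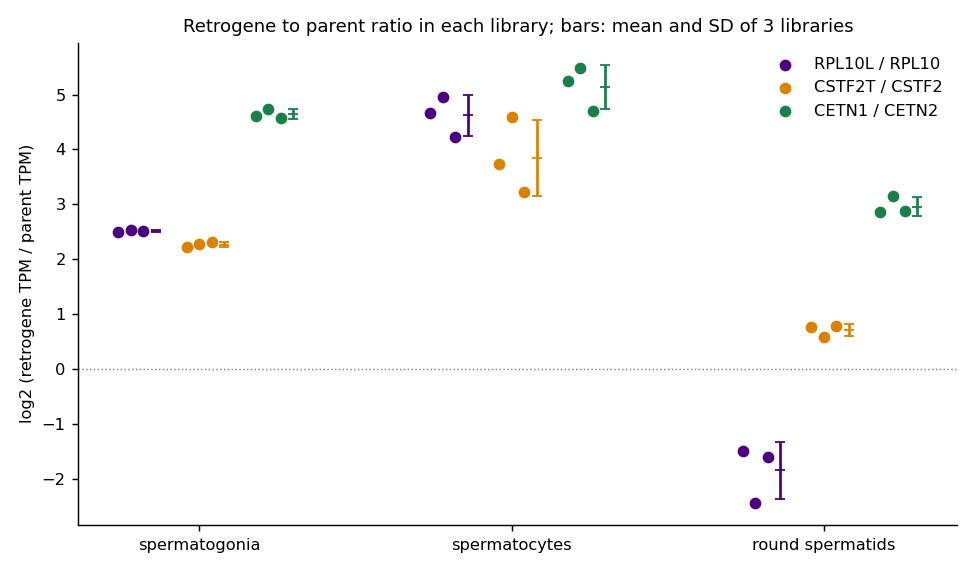
Log2 of the retrogene's TPM over the parent's in each of the 9 libraries for the 3 complete pairs, with the mean and SD of 3 libraries beside the points. All 3 pairs have their lowest ratios in round spermatids, and only RPL10L to RPL10 goes below 0 there (-1.85 ± 0.519).

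Ordered by mean TPM level, CETN1 led in every stage, at 2394 ± 81.7 TPM in spermatogonia, 4081 ± 281 TPM in spermatocytes and 1812 ± 457 TPM in round spermatids (SD, n = 3). In spermatogonia it was followed by GK2 (1663 ± 28.2 TPM), RPL10L (598 ± 6.96 TPM), RPL10 (105 ± 2.48 TPM), CETN2 (95.6 ± 4.19 TPM), CSTF2T (19 ± 0.274 TPM), RBMX (13.9 ± 0.725 TPM) and CSTF2 (3.87 ± 0.0718 TPM), with no overlap between neighbours. In spermatocytes GK2 (801 ± 60.0 TPM) and RPL10L (243 ± 3.75 TPM) kept their places, CETN2 (119 ± 38.4 TPM) and CSTF2T (23.3 ± 2.24 TPM) came next, and RPL10 (10 ± 2.74 TPM) and RBMX (9.67 ± 3.07 TPM) overlapped above CSTF2 (1.64 ± 0.798 TPM). Round spermatids had GK2 (444 ± 225 TPM), RPL10 (366 ± 222 TPM) and CETN2 (229 ± 29.1 TPM) next. Between libraries RPL10 overlapped with GK2 and with CETN2, while GK2 and CETN2 did not overlap. Within each library GK2 was above RPL10 and RPL10 above CETN2. Below them RPL10L (92.1 ± 19.3 TPM) and RBMX (76.5 ± 32.2 TPM) overlapped. At the foot CSTF2T (4.96 ± 1.70 TPM) and CSTF2 (3.06 ± 1.34 TPM) overlapped between libraries, with CSTF2T above CSTF2 within each. The wide SDs of this stage came with round spermatids 2, where RPL10 was at 622 TPM against 238 TPM in each of the other libraries, GK2 at 704 TPM against 315 and 314 TPM, and RBMX at 114 TPM against 54.9 and 61.0 TPM. Every member was highest in that library in TPM. In CPM, however, RPL10L, CETN1 and CETN2 were lowest there. CETN1 was at 2339.8 TPM against 1542 and 1554 TPM, but at 315 CPM against 337 and 348 CPM. RPL10 was at 279 CPM there against 173 and 177 CPM, a narrower gap than in TPM. The order depends on the lengths used for TPM. By mean CPM, which is not per length, GK2 was above CETN1 in every stage, with spermatocyte libraries overlapping. GK2 was at 1057, 732 and 404 CPM in the order of stages, and CETN1 at 293, 719.8 and 333 CPM.

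Genes that work with the members did not all follow them. The lists of related genes were drawn up by function and are described by counts and medians, beside the shares over all genes above. Only 22 of 48 listed genes were found for the large ribosomal subunit. For the others these were 15 of 20 for mRNA 3' end processing and 21 of 27 for centriole and centrin partners. Glycerol metabolism had 14 of 16, and hnRNP and splicing partners 21 of 23. Of 22 other genes of the large ribosomal subunit tested, 16 were lower and 2 higher in spermatocytes than in spermatogonia (median -0.72, and -1.25 on the TPM scale), and 19 were higher and 2 lower in round spermatids than in spermatocytes (median 1.44). RPLP0, the stalk protein, went from 1586 ± 49.4 CPM to 437 ± 41.7 CPM (-1.86 ± 0.201, adjusted p = 1.76e-05, edgeR) and RPL29 from 106 ± 2.65 CPM to 29.2 ± 5.54 CPM (-1.86), against -2.86 for RPL10, which is X-linked. RPL37 (1.24) and RPL7L1 (0.58) were the 2 that rose. RPL4 rose by 2.93 and RPL23 by 2.55 in round spermatids against spermatocytes, and RPL7L1 and RPL26L1, which are ribosomal protein-like paralogs, fell by 0.89 and 0.87. The median of the subunit genes had the direction of RPL10, and not that of RPL10L, in round spermatids against spermatocytes.

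Of 15 genes of mRNA 3' end processing, 8 were higher and 3 lower in spermatocytes (median 0.46), a direction that was not settled, with 5 higher and 4 lower on the TPM scale (median -0.06) and 7 and 5 without normalization factors (median 0.04). Later, 12 of 15 were lower and 0 higher in round spermatids against spermatocytes (median -0.85), and 3 of 15 did not pass edgeR's test. Without normalization factors 8 were lower and 3 higher (median -0.37), and without round spermatids 2, 12 and 2. CPSF2, a subunit of the cleavage and polyadenylation complex, was at 148 ± 1.15, 321 ± 32.7 and 86.0 ± 6.29 CPM in the 3 stages (1.12, then -1.90), and the poly(A) polymerase PAPOLG at 15.9 ± 0.271, 66.3 ± 7.82 and 19.6 ± 3.74 CPM (2.05, then -1.75). RBBP6 rose by 1.78 in spermatocytes, and CPSF4 fell by 1.19 and the scaffold SYMPK by 0.49.

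Of 21 centriole and centrin partner genes, 14 were higher and 4 lower in spermatocytes (median 0.77, with 10 higher and a median of 0.24 on the TPM scale, and 11 and 0.36 without normalization factors), and 17 were lower and 3 higher in round spermatids against spermatocytes (median -1.99). CETN3, the other centrin in the list, was at 46.0 ± 2.57, 275 ± 58.9 and 16.2 ± 2.68 CPM (2.58 ± 0.182, then -4.08 ± 0.195, adjusted p = 1.51e-06 and 2.45e-08, edgeR), a peak in spermatocytes like that of CETN1 and unlike CETN2. CCP110, a centriole capping protein that binds centrin, rose by 2.54 and fell by 3.29. CEP135 (3.38) and CEP290 (3.35) rose most in spermatocytes, WDR90 and POC1A fell (-2.18 and -0.69), and RAD23B and POC1B rose by 1.07 and 0.89 in round spermatids against spermatocytes. RAD23B, with CETN2 part of the DNA damage recognition complex that contains XPC, was higher at each stage, at 26.3 ± 1.56, 44.8 ± 5.41 and 93.9 ± 20.5 CPM, the order of CETN2.

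The glycerol metabolism genes around GK2 were mixed. Of 14, 4 were higher and 8 lower in spermatocytes (median -0.67), and 7 were higher and 4 lower in round spermatids against spermatocytes (median 0.62). The 4 higher became 0 on the TPM scale (median -1.21) and with the spermatogonia libraries summed, 1 without normalization factors, and 2 without spermatogonia 3 or spermatocytes 4. The later median was 0.35 without spermatocytes 3 and 1.06 without normalization factors. GK5, another glycerol kinase, was at 8.02 ± 0.462, 15.1 ± 3.17 and 10.7 ± 1.90 CPM (0.92, adjusted p = 0.0011, then -0.50, adjusted p = 0.0261, edgeR), a peak in spermatocytes that GK2 did not have. The lipases LIPE and PNPLA2 fell by 1.97 and 1.55 in spermatocytes, and GPAT3, an acyltransferase of glycerolipid synthesis, rose by 0.52. In round spermatids against spermatocytes MGLL and LIPE rose by 3.16 and 2.03, while GPAT3 and the glycerol phosphate phosphatase PGP fell by 1.55 and 0.83.

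Around RBMX, 14 of 20 hnRNP and splicing partner genes were higher and 2 lower in spermatocytes (median 0.93, with 9 higher and a median of 0.40 on the TPM scale), and 9 were higher and 7 lower in round spermatids against spermatocytes (median 0.13, from -0.08 without the 50 most abundant genes to 0.57 without normalization factors). TRA2A, a splicing activator, rose by 2.57 and HNRNPH1 by 2.33 in spermatocytes. The 2 that fell, RBM10 and RBM3, are X-linked like RBMX. RBM3, a cold-induced RNA-binding protein, was at 43.1 ± 1.10, 29.9 ± 6.97 and 193 ± 10.8 CPM, and RBM10, a splicing regulator, at 42.9 ± 0.565, 22.1 ± 5.09 and 123 ± 7.65 CPM. Both were called lower in spermatocytes (-0.52 and -0.96) and had the 2 largest rises of the list in round spermatids against spermatocytes (2.69 and 2.48), beside 3.01 for RBMX, while KHDRBS3 and TRA2A fell by 1.36 and 1.15.

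**Figure D4:**
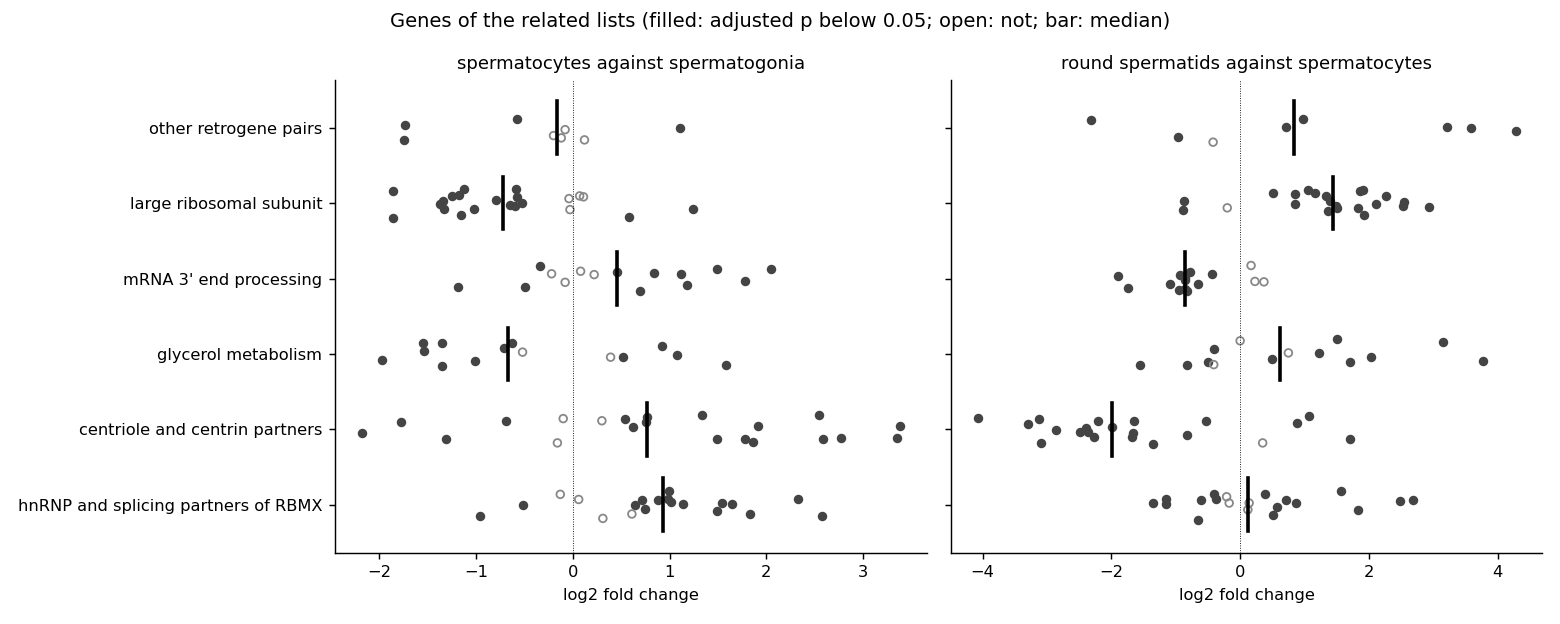
Log2 fold change of each tested gene of the 6 related lists in spermatocytes against spermatogonia (left) and round spermatids against spermatocytes (right), filled where the adjusted p was below 0.05, with a bar at the list's median. The large ribosomal subunit genes have medians of -0.72 and 1.44 and the centriole genes 0.77 and -1.99.

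The genes with the course most like each member over the 9 libraries, which fall into 3 stages, were found by Pearson correlation of log2(CPM + 0.5) among 7774 genes. For RPL10 they were SLC25A5, which is X-linked (r = 0.9993), SRF (0.9989) and FTL (0.9984), and for RPL10L STIM1 (0.9981), COG7 (0.9969) and SLC25A39 (0.9964). CSTF2 was most like LPIN1 (0.9902), FBXO39 (0.9894) and GSPT2, also X-linked (0.9785), and CSTF2T most like DCAF6 (0.9996), CERS3 (0.9994) and BUB1B (0.9992). For CETN2 they were FOXN2 (0.9941), ENAH (0.9913) and TSR1 (0.9890), for CETN1 PHTF2 (0.9966), LACTB2 (0.9964) and RMI1 (0.9957), for GK2 CC2D1B (0.9988), EXTL2 (0.9983) and AP2B1 (0.9983), and for RBMX NFATC2 (0.9995), LAMC1 (0.9978) and EMP2 (0.9977). None of the 8 members was among those of another. CSTF2 could not be, since candidates needed a mean of at least 10 CPM over the 9 libraries, which it did not reach. These likenesses are a description, with no test.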

How the data were processed

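Directional libraries of testis total RNA were read from both ends on an Illumina instrument, per the labels' protocols. The build Sscrofa11.1 and the tool bcl2fastq come from the submitters' processing notes, and for the aligner, the quantifier and the annotation the entry is "not given in the sources used here". The authors deposited estimated counts and TPM per gene. In these deposited values a count equals TPM times a gene factor and a library factor (largest log deviation 3.73e-14), and the TPM columns lack 3.19 to 11.79% of the unit's total. Columns were matched to samples by their headings: the round spermatid columns carry the titles, while those headed with the KIT receptor and with pachytene were taken as spermatogonia and spermatocytes of the same numbers, which the labels do not state. The other 6 library columns were not used.

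Symbols were found for 14749 of 22342 identifiers, and chromosomes for 13685 by symbol in a RefSeq table of Sscrofa11.1. Where several identifiers carried a symbol, the one with the highest mean count was taken. GK and RBMXL2 are not analysed here. Estimated counts were rounded, filtered with filterByExpr and scaled with TMM, and all 9 libraries were fitted together in edgeR 4.0.16 (glmQLFit, glmQLFTest, R 4.3.3, common dispersion 0.0316). The standard error is the log2 fold change divided by the square root of F, in size. Calls have a Benjamini-Hochberg adjusted p below 0.05. Ratios used log2 of TPM + 0.1 and exact permutation in Python with NumPy 2.4.6. SciPy 1.17.1 gave the chi-square value for sampling noise alone. Alternatives used DESeq2 1.42.0, limma 3.58.1 on log2(TPM + 0.1), other scalings and filters, a replicate block, 1 library left out, and the spermatogonia libraries summed. The scripts were tested on simulated data.

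The text names all members found and the cell type markers. From each related list it names up to 2 genes with the largest rise and 2 with the largest fall among called genes of at least 10 CPM in the mean of a stage, in the first 2 comparisons, and for each member the 3 genes most like it among those with a mean of at least 10 CPM. Members, lists and this rule were chosen with earlier results of these data known. No sequence of the genes was used here.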

Additional observations from a re-analysis of the deposited data

How the results depend on the processing

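Over 19 alternatives for each of 24 member comparisons, 422 of 456 values kept their direction and their side of the threshold, 20 lost the call, 4 gained one and 10 turned sign, and none of the turned values had been called. RBMX in spermatocytes against spermatogonia (-0.02) turned to 0.16 with RLE size factors and with DESeq2, 0.20 without a filter, 0.22 without the 50 most abundant genes, 0.19 with only the compared stages, and lay between -0.23 and 0.14 with 1 library left out. CSTF2 and CETN1 in round spermatids against spermatogonia turned to -0.41 and -0.43 with limma on TPM. Calls were lost in spermatocytes against spermatogonia for CSTF2 in 10 alternatives, GK2 in 5, CETN2 in 3 and CSTF2T in 1 (0.29 on TPM, adjusted p = 0.277, limma), and in round spermatids against spermatocytes for GK2 in 1. Summing the spermatogonia libraries into 1 sample lost the calls of CSTF2, GK2 and CETN2 in spermatocytes against spermatogonia. Those calls therefore also depended on counting the spermatogonia libraries as 3 samples. All 108 alternative values of the stage differences in the ratios kept their direction, and the exact permutation test of the ratio across the 3 stages gave adjusted p-values of 0.00357 to 0.0286 over the 3 pairs and these alternatives. The differences between 2 stages could not pass 0.05 in any setting, so their p-values say nothing of stability. All 57 counts of called genes stayed within 1.5 times. In spermatocytes against spermatogonia the count was lowest with the spermatogonia libraries summed into 1 sample. With a replicate block 11915, 13016 and 13378 genes were called, against 12330, 13301 and 13312, and no member's call changed. Same-numbered libraries did not deviate together (r from -0.12 to 0.04 over 7 pairs). Pairs with a spermatogonia library can say little of this, since those libraries were far closer to sampling noise than the others. Between spermatocytes and round spermatids r was -0.06 for number 2 and -0.09 for number 3. The labels do not state a pairing, and the numbers were not taken as one. The least covered member values, those of RPL10 and CSTF2 in spermatocytes, rest on 162 to 453 estimated counts.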

Other observations

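Among 20 other genes of retrogene pairs, 9 were found and 8 passed the filter, and 2 further pairs were complete. RPL36AL, the autosomal copy of the X-linked ribosomal protein gene RPL36A, was at 250, 244 and 235 TPM in spermatogonia, 414, 346 and 328 TPM in spermatocytes and 180.4, 164 and 165 TPM in round spermatids. RPL36A was at 179, 176 and 162 TPM, 125, 85.5 and 129 TPM, and 932, 1049 and 936 TPM. Their ratio was 1.40, 1.39 and 1.45 in spermatogonia, 3.31, 4.05 and 2.54 in spermatocytes and 0.193, 0.156 and 0.176 in round spermatids, the order seen for RPL10L and RPL10. FAM50B exceeded its X-linked parent FAM50A 264- to 394-fold in TPM in spermatogonia, 753- to 1758-fold in spermatocytes and 32.7- to 54.3-fold in round spermatids, and FAM50B itself did not pass edgeR's test in the 3 comparisons (log2 fold changes 0.12, -0.42 and -0.30). It was called lower in round spermatids against spermatocytes under other settings, among them RLE size factors, the replicate block, without the 50 most abundant genes, without spermatocytes 4 and on the TPM scale. No test was made of these ratios, and the pairs were singled out after their values were seen. Of the 8 genes, 1 was higher and 3 lower in spermatocytes against spermatogonia (median -0.16). That median was 0.08 without the 50 most abundant genes, while 6 were lower without normalization factors (median -0.58) and 7 on the TPM scale (median -0.69). Of the same 8, 5 were higher and 2 lower in round spermatids against spermatocytes (median 0.84, and 1.29 without normalization factors). PGK1, the X-linked phosphoglycerate kinase, fell by 1.75 and then rose by 3.59, and FAM50A fell by 1.74 and rose by 4.28, while TSPYL1, an autosomal retrogene, fell by 2.32 in the later step.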
